A study of Mus musculus with 3 samples.

Results

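Mouse chromosome 8 carried 208 of the 2370 BCL11A peaks deposited for MEL cells, and 201 of the 208 lay in a distal stretch of 5.64 Mb. The members are all peaks of the list on chromosome 8, whatever their score or width. The chromosome was chosen by its peak scores, since several of the highest scores of the list had been seen there. The scores are therefore given as a description, without a test of chromosome 8 against other peaks.

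BCL11A is a zinc-finger protein that binds DNA and recruits corepressor complexes, and it is best known for keeping the fetal and embryonic globin genes silent in adult red cells. MEL cells are a mouse erythroleukemia line arrested at an early stage of red cell development. A peak in a chromatin pull-down is an interval where sequenced fragments pile up beyond what the peak caller takes as background. The height of such a pile depends on protein binding and also on how much DNA of the region the cells carry and how well it is recovered.

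The profiled cells were MEL clones with FLAG-Biotin-tagged BCL11A and BirA, a bacterial enzyme that attaches biotin to the tag. The labels do not say how many clones were used. Tagged protein and its DNA were pulled down on streptavidin beads after 5 min in 1% formaldehyde, from cells grown with 10% serum. Between 3 and 9 ng of DNA were then sequenced as single molecules on the HeliScope. The series comprises this sample, MEL cells with only BirA, and input DNA, 3 in all, and only the list of the tagged cells was analysed here. There is 1 library and no replicate, so no value has an error between samples, and the number of reads behind a peak is unknown. Peaks of 1 list are not replicates of a condition, so their shares and medians are given without an error. Without the BirA or input signal, denser binding and a regional gain in DNA copies or in coverage cannot be told apart in anything that follows.

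The 208 members had a median score of 69.9, with quartiles at 57.0 and 99.9 and a range from 50.12 to 362.90. Over all 2370 peaks the median was 59.4 and the quartiles were 53.2 and 74.5. The authors' score has no stated scale and a floor at 50, and it ranks peaks within this list only. On chromosome 8, 52 members (25.0%) scored over 100, where 10.0% of all peaks did. Scores under 60 were found for 66 members (31.7%), against 51.7% of all peaks. Chromosome 8 thus held both the top of the list and many peaks near its floor.

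The share of high scores that came from chromosome 8 was largest at the very top of the list. The chromosome gave 7 of the 10 highest scores, 10 of the 20 highest and 22 of the 50 highest, while its share of all peaks was 8.78%. It gave 34 of the 100 highest (34.0%) and 49 of the 200 highest (24.5%), both still above that share. Chromosome 9, which held 1105 of the 2370 peaks (46.6%), gave 38 of the 100 highest and 91 of the 200 highest. When peaks were ranked by score per bp of width, 8 of the 50 highest lay on chromosome 8.

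Only 7 members lay outside the distal stretch, spread over the rest of the chromosome with empty intervals of 2.48 to 46.6 Mb beside them. All 7 scored below the chromosome's median of 69.9. Their positions were chr8:4036253-4036898 (score 52.99), chr8:9411250-9411928 (51.14), chr8:56022383-56022763 (65.64), chr8:91151873-91152518 (52.99), chr8:107184383-107185007 (54.23), chr8:114681931-114682593 (59.20) and chr8:122609146-122609840 (50.27). The highest of the 7, at 65.64, was also the narrowest member of all, at 381 bp. The other 6 were 625 to 695 bp wide.

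The other 201 members, 96.6% of the total, formed 3 blocks, a block being 20 or more successive peaks in which no gap from centre to centre exceeds 250 kb. Over the whole list 75.2% of peaks lay in such blocks. The 581 peaks outside blocks on other chromosomes had a median score of 55.03 and a median width of 684 bp. For the 7 members outside the stretch these medians were 52.99 and 646 bp. Scores under 60 made up 73.7% of the 581 and 85.7% of the 7, so low scores were not particular to these members. The stretch began at 125093056 and ended at 130736869 (mm9), and the peaks covered 4.17% of it. Block 1 ran from chr8:125093056-125093985 (score 69.90) to chr8:127320313-127320943 (51.10) and held 59 peaks. Block 2 ran from chr8:127714399-127715097 (58.33) to chr8:129174985-129176354 (111.24) with 79 peaks. Block 3 ran from chr8:129458919-129461563 (153.84) to chr8:130736177-130736869 (51.34) with 63 peaks. The empty intervals between them were 393 kb and 283 kb, and the widest one inside block 1 was 242 kb. With centres allowed to lie 500 kb apart, the 3 blocks became 1.

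**Figure D1:**
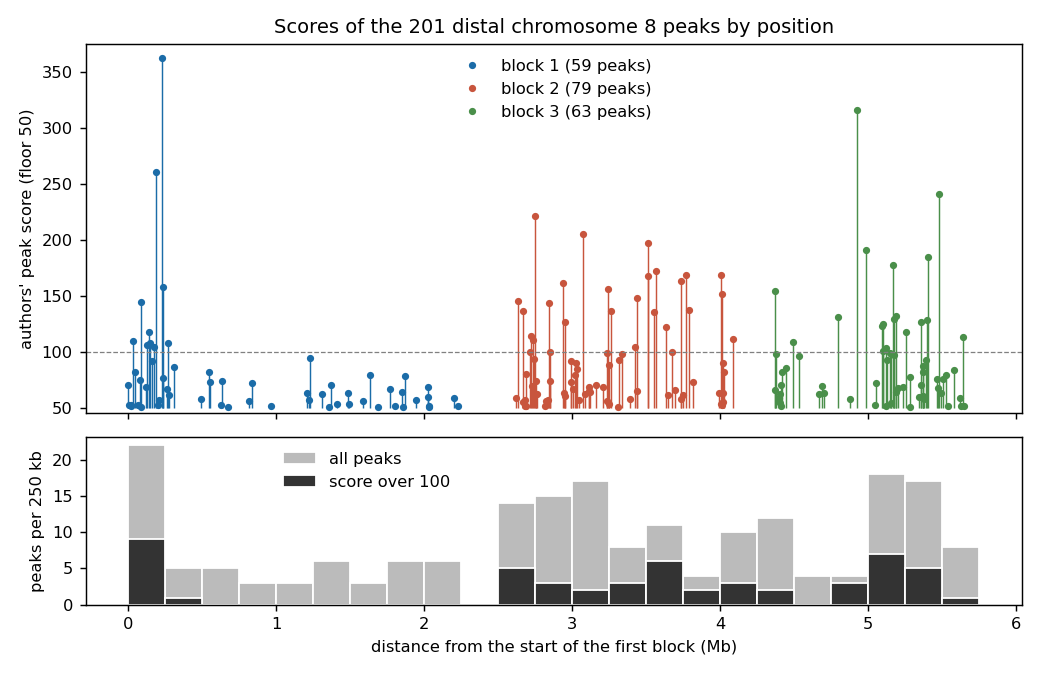
The upper panel plots the authors' score of each of the 201 distal peaks (floor 50) against its distance in Mb from the start of block 1, coloured by block, with a dashed line at a score of 100. The lower panel gives the number of peaks in each window of 250 kb, in grey for all and in black for scores over 100; the first window holds 22 peaks, and no score over 100 lies between 0.27 and 2.63 Mb.

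Block 1 was uneven. Its first 26 peaks lay within 312 kb, from 125093056 to 125404807, at 83.4 peaks per Mb, and their median score was 78.8. All 10 scores over 100 of the block were among these 26. After an empty interval of 182 kb, the other 33 peaks were spread over 1.73 Mb at 19.0 per Mb, with a median score of 57.3 and a highest score of 94.49. This division was made after the values were seen. Taken from the last score over 100 in block 1 to the first in block 2, a run of 2.36 Mb with 36 peaks held none above 94.49. That it holds no score over 100 follows from how it was taken. It includes the empty interval of 393 kb between the blocks.

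Blocks 2 and 3 carried high scores along most of their length. Block 2 had 24 of 79 peaks over 100 (30.4%) and a median of 74.0, and block 3 had 18 of 63 (28.6%) and a median of 77.1. In block 1 the corresponding values were 10 of 59 (16.9%) and 63.1. Over the 23 windows of 250 kb that tile the stretch, the count ran from 0 to 22 peaks with a median of 6, and 14 windows held at least 1 score over 100. A window with few peaks could still hold high scores: the one from 129843056 to 130093055 held 4 peaks, of which 3 scored over 100. Across the 22 windows with at least 3 peaks, Spearman's rank correlation between peak number and median score was 0.45. These windows share 1 library and some rest on few peaks, so the coefficient is a description.

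The 10 highest members were divided as 2 in block 1, 3 in block 2 and 5 in block 3. Their scores ran from 177.38 to 362.90 and their widths from 1620 to 3447 bp. Together they made up 24.3 kb, or 10.1% of the bases under chromosome 8 peaks. Ranks 2 and 8 were direct neighbours, and no others of the 10 were.

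The highest score of the whole list, 362.90, belonged to chr8:125320630-125324076 in the dense start of block 1. At 3447 bp it was also the widest member. On its distal side, after 1333 bp, followed a peak of 2646 bp with a score of 157.94 and, 20 bp further, one of 1001 bp with 76.02. On its proximal side the nearest peak was 17135 bp away and scored 57.00. Within 50 kb of its centre lay 8 other peaks with scores from 52.36 to 260.21 and a median of 71.2.

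The peak with a score of 260.21 in that neighbourhood was chr8:125278470-125280908, rank 3 on the chromosome and 2439 bp wide. It stood 12296 bp from a peak of 104.54 and 11329 bp from one of 52.36. Ranks 1 and 3 of the chromosome thus lay 39.7 kb apart, with 2 peaks of 52.36 and 57.00 between them.

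The second highest score, 315.87, belonged to chr8:130017290-130019512 in block 3, 2223 bp wide. It stood alone, with no other peak centre within 50 kb. Its neighbours were 50879 bp away with a score of 57.45 and 54172 bp away with 191.17, the latter being chr8:130073685-130076971, rank 8 on the chromosome and 3287 bp wide. High scores thus occurred both inside crowded stretches and on isolated peaks.

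The fourth was chr8:130566194-130569002 (score 240.52, 2809 bp), between peaks of 67.08 and 63.19. In block 2, chr8:127841304-127842923 scored 221.27 over 1620 bp, and chr8:128166496-128168443 scored 204.79 over 1948 bp, with neighbours of 56.64 and 62.17. The remaining 3 were chr8:128603437-128605897 (197.15), chr8:130495155-130497372 (184.18) and chr8:130260095-130261963 (177.38).

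Scores of neighbouring peaks were hardly related over all pairs, though the highest peaks had neighbours over 100 more often than the lowest did. Across the 198 pairs of neighbouring peaks within the blocks, Spearman's rank correlation between their scores was 0.07. The 20 members scoring over 150 had 39 neighbours in their blocks, with a median score of 75.3, and 14 of these neighbours (35.9%) scored over 100. The 60 block members under 60 had 117 neighbours with a median of 70.2, of which 24 (20.5%) scored over 100. Over all block members 25.8% of neighbours were over 100. Of the 60 block members under 60, 19 lay in the later part of block 1. None of the 33 peaks of that part scored over 100, which lowers the 20.5%. Shares without that part were not computed, so the contrast cannot be read as a trait of neighbouring peaks. Each peak can be counted as a neighbour more than once, so these shares overlap.

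Many members lay close to another peak, and some lay almost end to end. Another peak edge lay within 1 kb of 64 members (30.8%), and these 64 formed 29 joined stretches. The share was 17.9% over all peaks and 21.6% over the blocks of other chromosomes, with 24.5% in the chromosome 9 block and 23.3% in the chromosome 14 block. Of the 207 intervals between neighbouring members, 11 were shorter than 100 bp and the smallest was 4 bp. Intervals this short were not counted on other chromosomes, so no comparison with the list can be made for them. No members overlapped. The narrowest interval separated chr8:129094991-129095588 (score 53.10) from chr8:129095593-129097419 (168.47), and 8 bp separated chr8:128827977-128829303 (57.94) from chr8:128829312-128830937 (163.16). In both pairs a peak near the floor abutted one above 150. In contrast, the 25 bp after the peak of 197.15 at 128603437 led to another high one, chr8:128605923-128607145, with 167.45.

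The longest joined stretch spanned 6076 bp, from 129110370 to 129116445 in block 2, and held 4 peaks with scores of 55.02, 62.62, 89.89 and 81.91. Next came one of 5026 bp from 129100325 with 3 peaks, where 151.80 stood between 54.45 and 52.18. Both lay in the last part of block 2, where 11 peaks lay within 90.8 kb, at 121 per Mb. These peaks were not evenly spread: an empty interval of 58539 bp preceded the last of them, chr8:129174985-129176354. By block, 6 members of block 1 (10.2%), 34 of block 2 (43.0%) and 24 of block 3 (38.1%) had an edge of another peak within 1 kb. Whether such strings are separate sites or pieces of 1 broad enrichment was not tested.

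The members were wide as well as high in score. Their median width was 1012 bp, against 764 bp over all peaks, and 39 of 208 (18.8%) were at least 1500 bp wide, where 7.85% of all peaks were. The median was 776 bp in block 1, 1223 bp in block 2 and 1075 bp in block 3. Similar medians were found in the blocks of chromosome 19 (1011 bp) and chromosome 14 (996.5 bp). In the blocks of chromosomes 3, 9, 12 and 15 they ran from 716 to 834.5 bp. Block 1 was thus narrower by its median than the chromosome 9 block, at 827 bp. Score and width rose together across the 208 members, with a Spearman rank correlation of 0.74 (0.63 over the whole list). The peaks share 1 library and 1 caller, and the sources used here do not say how the caller combines width and height into the score. All 52 members over 100 were at least 1022 bp wide, with a median of 1705 bp. The narrowest of them was chr8:128031264-128032285, with 160.94 over 1022 bp. In the blocks of other chromosomes some narrower peaks scored over 100: 3 of 264 at 700 to 800 bp and 21 of 318 at 800 to 1000 bp.

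Width did not fix the score. A member of 1788 bp, chr8:130371628-130373415, scored 50.20, and chr8:128211516-128213853, at 2338 bp, scored 63.69. These and 2 others, with 64.92 over 1624 bp and 72.56 over 1745 bp, were the only members of at least 1500 bp that scored under 75. Among members of 2000 bp or more, scores over 100 were found for 14 of 17, beside 36 of 48 for peaks of this width in blocks of other chromosomes.

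**Figure D2:**
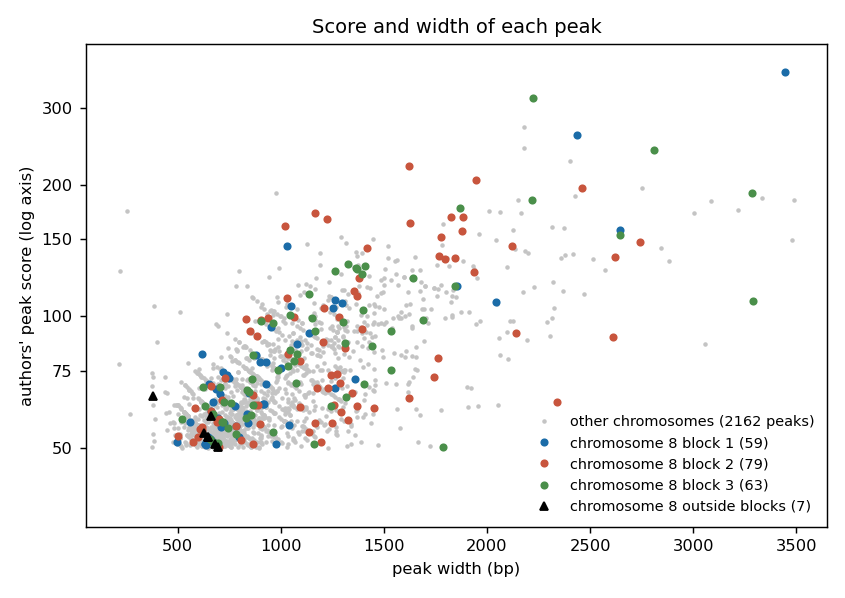
Each point is 1 peak, with its width in bp on the x axis and the authors' score on a log y axis; chromosome 8 peaks are coloured by block, the 7 outside the blocks are black triangles and the other 2162 peaks are grey. The 10 highest chromosome 8 peaks lie at widths of 1620 bp or more. Of the 7 triangles, 6 lie under 60 and the other at 65.64.

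Scores of peaks of similar width were set beside those in the 7 blocks of other chromosomes. At 600 to 700 bp the medians were 52.5 for 37 chromosome 8 block peaks and 52.9 for 383 others. At 700 to 800 bp they were 62.3 (19 peaks) and 57.1 (264 peaks), and at 800 to 1000 bp 67.1 (33 peaks) and 65.3 (318 peaks). At 1000 to 1200 bp they were 81.9 (27 peaks) and 75.01 (211 peaks), and at 1200 to 1500 bp 87.6 (39 peaks) and 85.2 (181 peaks). The widest gap between medians was at 1500 to 2000 bp, with 131 (22 peaks) and 103 (98 peaks). Above 2000 bp they were 154 (17 peaks) and 139 (48 peaks). The chromosome 8 median was the higher one in 6 of these 7 classes, and the interquartile ranges overlapped in all 7. Scores chose the chromosome, so this count is a description and tests nothing. Of the 1581 peaks in the other blocks, 1027 were in the chromosome 9 block. The chromosome 14 block was not set apart by width. Wide peaks were also a larger part of the chromosome 8 blocks: 39 of the 201 block members (19.4%) reached 1500 bp, against 9.23% of peaks in the other blocks. Among those, the share was 15.07% on chromosome 19, 13.95% on chromosome 14 and 9.73% or less on the rest. By block, it was 26.6% in block 2 and 20.6% in block 3. In block 1 it was 8.47%, below the 9.25% of the chromosome 9 block.

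Compared block by block, chromosome 14 came closest. Its block of 86 peaks had a median score of 70.1 and 26.7% of scores over 100, beside 70.4 and 25.9% for the 201 chromosome 8 block members. It was far denser, with 100.03 peaks per Mb and 11.0% of its length covered. The 3 chromosome 8 blocks had 26.5, 54.0 and 49.3 peaks per Mb and covered 2.55%, 6.91% and 6.07% of their lengths. The large block on chromosome 9, with 1027 peaks at 79.9 per Mb and 7.69% covered, had a median of 61.9 and 10.6% over 100. The chromosome 3 block, with 226 peaks at 69.3 per Mb, had 60.6 and 10.2%. The blocks on chromosomes 15 and 19 had 76.2 and 85.05 peaks per Mb, with 12.1% and 11.0% over 100. Of the 2 blocks on chromosome 12, the one from 113161303 had 48.5 peaks per Mb with 8.86% over 100, and the one from 117375345 had 25.3 with 3.51%. Densities like those of the chromosome 8 blocks were thus also found on chromosome 12, with smaller shares over 100. Block 1 had a median of 63.1, near that of the chromosome 9 block. These differences were not tested, because scores chose the chromosome.

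**Figure D3:**
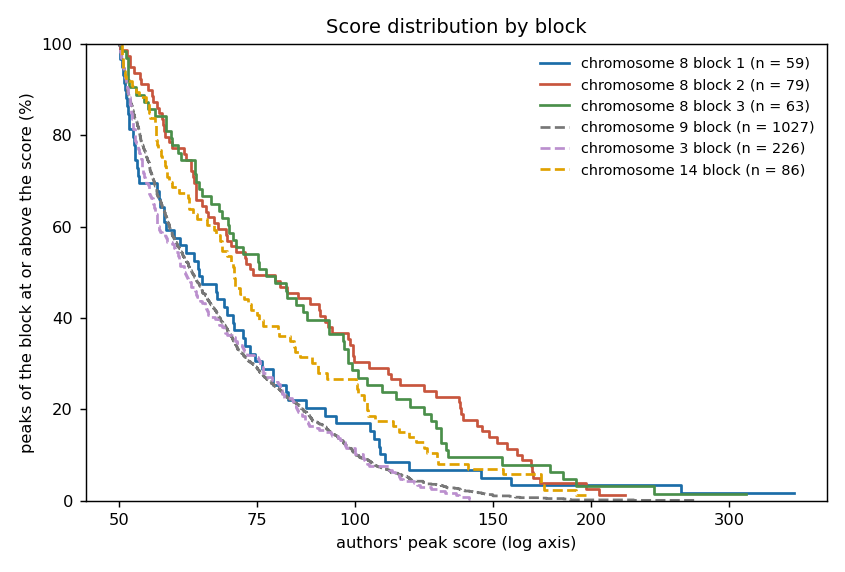
For each block the curve gives the percentage of its peaks at or above the authors' score on the log x axis; solid lines are the 3 chromosome 8 blocks and dashed lines are blocks on chromosomes 9, 3 and 14. At a score of 100 the curves of blocks 2 and 3 stand at 30.4% and 28.6%, the chromosome 14 block at 26.7%, block 1 at 16.9% and the chromosome 9 and 3 blocks at 10.6% and 10.2%.

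Many narrow members lay on common curves of score against width. Of the 49 members 600 to 720 bp wide, 34 (69.4%) fell within 0.05 score units of 1 of 3 smooth curves along which the score dropped as the width grew. Over the whole list 579 of 812 peaks of these widths (71.3%) did so. At 660 bp the curves stood at 52.2, 60.7 and 69.6. Exact pairs of width and score recurred: the member chr8:4036253-4036898 and the member chr8:91151873-91152518 were both 646 bp wide with a score of 52.99, and 5 peaks of the list had this pair. The curves were noticed in the data and fitted to recurring pairs, so the counts describe them and test nothing.

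The most populated of the 3 curves held 23 members, with scores from 50.12 to 55.27. They were 5 of the 7 members outside the blocks, 12 of 59 in block 1 (20.3%), 2 of 79 in block 2 (2.53%) and 4 of 63 in block 3 (6.35%). Over the whole list 426 of 2370 peaks (17.97%) were on this curve, with 14.2% in the blocks of other chromosomes and 30.8% of the 581 peaks outside blocks there. The share in block 1 was thus near that of the list, and those in blocks 2 and 3 were below it. Only peaks of 600 to 720 bp were set against the curve. Of these, 426 of 812 in the list (52.5%) and 23 of 49 on chromosome 8 (46.9%) lay on it. Median widths were 776, 1223 and 1075 bp in blocks 1, 2 and 3, so shares over all peaks of a block depend on its widths by construction. The 3 lowest scores of the chromosome were on this curve: chr8:128403988-128404685 with 50.12 at 698 bp, and 2 peaks of 697 bp with 50.17, chr8:125181593-125182289 and chr8:127124004-127124700.

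**Figure D4:**
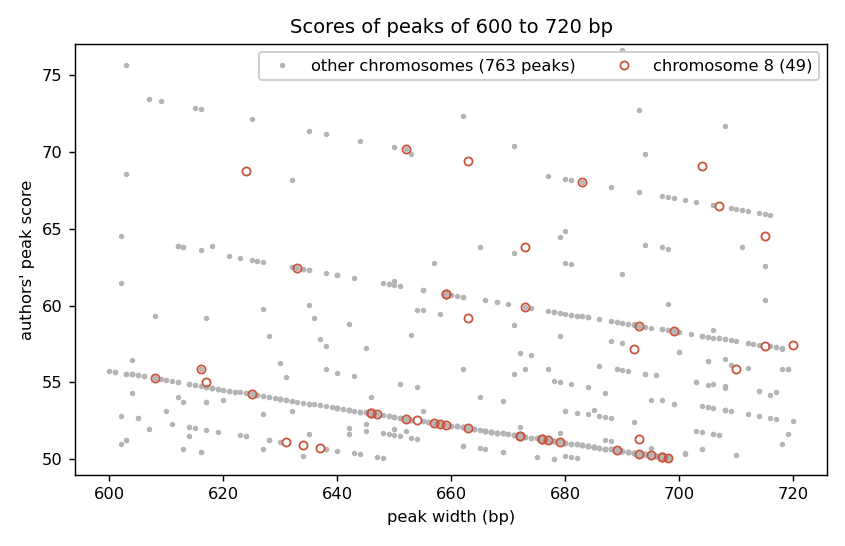
Each point is a peak 600 to 720 bp wide, with its width in bp on the x axis and the authors' score on the y axis, in grey for 763 peaks of other chromosomes and as open circles for 49 on chromosome 8; 4 grey points and 1 circle lie above the axis limit of 77. Many points line up along falling curves, and the most populated of them reaches the floor of 50 near 698 bp.

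Chromosome 8 carries several genes of red cell biology. A list of 20 blood and distal genes was put together from genes of this chromosome, and their order was read from the RefSeq gene table of assembly GRCm38.p6. From the centromere outward they begin with Ank1, which encodes the red cell membrane protein ankyrin, and Hmox1, a heme-degrading enzyme. Lyl1, Nfix, Calr, Klf1, Dnase2a, Prdx2 and Junb follow. Klf1 is an erythroid activator of adult beta-globin and of Bcl11a itself. Further out lie Cbfb, Irf8, Zfpm1 (a partner of the erythroid regulator GATA1), Cyba, Piezo1 (a red cell ion channel), Cbfa2t3 (a corepressor of erythroid genes) and Fanca. The order ends with Galnt2, Egln1 (an oxygen sensor upstream of erythropoietin), Nrp1 and Itgb1. The peaks are in mm9 coordinates and the table is in another assembly, so whether any of the 208 peaks lies at one of these genes was not analysed here. No peak sequence is shown for the same reason.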

How the data were processed

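The deposited file of the tagged BCL11A sample lists intervals with 1 score each. The authors called the peaks with CisGenome, per the file header, on build mm9, per the submitters' processing notes. The control used, the aligner and the score's scale: not given in the sources used here. A score of 50, the floor, equals 10 times the negative log10 of 1e-05, and the track name holds "pcut5", but no source states this scale.

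Members were all intervals on chromosome 8. The members, the block rule and the gene list were chosen with earlier results of these data known. Starts are printed counting from 1. Blocks, windows of 250 kb, joined stretches (edges within 1 kb) and neighbour scores were computed with Python 3.11.15, numpy 2.4.6, pandas 2.3.3 and scipy 1.17.1, and drawn with matplotlib 3.10.9. Curves of score on width are quadratic fits to width and score pairs held by at least 5 peaks (the most populated curve) or at least 2 (the others). Block and merging code was tested on simulated data, with 3 planted blocks recovered in 20 of 20 lists. The planted blocks lay much farther apart than the 250 kb of the block rule. The test therefore checks the code only, and not how well the 3 chromosome 8 blocks are separated. Peaks were named by rule: the 10 highest, all outside blocks, the ends of each block, the widest and narrowest, the 3 lowest and the neighbours of the 3 highest; other named peaks were picked after their values were seen. No test was run, as 1 library gives no replicate.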

Additional observations from a re-analysis of the deposited data

How the results depend on the processing

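Of 40 alternatives, 13 left a share or median inside a 95% binomial interval computed from its number of peaks (Wilson for shares, order statistics for medians), or a count within 1.5 times. This interval only sets what counts as a small change: peaks of 1 list are not replicates, and it is no error of the value. The other 27 moved the value and 0 changed its sign. Only a rank correlation or a difference of medians could have changed sign. For Spearman's rank correlation and differences of medians any change counts as a move. The 1 alternative on a median without the later part of block 1 was added after seeing the data. The share over 100 (25.0%) became 39.9% for scores over 80 and 9.62% over 150. The median width was 1227 bp among members at or above the list's median score. Spacing of centres in blocks, 11.1 kb, became 15.0 kb with peaks merged within 1 kb. Blocks held 79.8% of members with a gap of 100 kb (4 blocks) and 91.7% of members at or above the list's median score; gaps of 500 kb and 1 Mb each gave 1 block. Members among the 50 highest fell from 22 to 8 by score per bp, and were 7, 34 and 49 among the 10, 100 and 200 highest. Spearman's rank correlation of score and width was 0.73 in blocks, 0.71, 0.65 and 0.75 in blocks 1, 2 and 3, and 0.70 without the 10 highest. The median score lay 11.1 above that of other peaks, 13.0 above without chromosome 9, and 0.00210 above per bp of width. The value per bp is on another scale and cannot be set against the 11.1. The medians of score per bp behind it are not given, so its size cannot be judged. Median score and width were 69.9 and 1012 bp on chromosome 8, and 58.8 and 755 bp over all other peaks. Block members lay 8.85 above other blocks: 11.7 and 15.3 against the chromosome 12 blocks, 0.31 against chromosome 14, 10.7 against 15, 6.34 against 19, 9.80 against 3, 8.51 against 9, and 3.23 for peaks of 600 to 1000 bp. The cause of these moves was not tested, except that other thresholds and list lengths change counts by construction. Alternatives that need mm9 sequence were not run. No paired analysis was possible because only 1 peak list was used. The list holds no read numbers, so no limit of depth can be given.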
